A study of Mus musculus with 55 samples.

Results

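Fads1, Fads2, Elovl1, Elovl2, Elovl3, Elovl5, Acsl1 and Lpcat3 are enzymes that desaturate, elongate, activate and re-esterify long-chain fatty acids in the liver. They were taken by gene symbol from the count files of both sequencing batches, where all 8 were found among the 34490 symbols that the batches share. All 8 passed the filter on low counts in every model, so every member has a test in every comparison.

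Mammals take the parent polyunsaturated fatty acids, linoleic and alpha-linolenic acid, from food and convert them in the endoplasmic reticulum of hepatocytes to arachidonic, eicosapentaenoic and docosahexaenoic acid. Fads2 introduces the first double bond at the delta-6 position and is regarded as the limiting step, Fads1 introduces a later one at the delta-5 position, and Elovl5 and Elovl2 lengthen the intermediates between and after these steps. Elovl1 and Elovl3 lengthen saturated and monounsaturated acids to very long chains, and Elovl3 is known in mouse liver for a strong male bias and a daily rhythm. Acsl1 couples long-chain acids to coenzyme A, and Lpcat3 places polyunsaturated acyl chains into lysophospholipids of the membrane.

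RNA of whole livers of adult C57BL/6 mice was sequenced. All mice carried floxed alleles of Rnf43 and Znrf3, which encode ubiquitin ligases that lower Wnt receptors on the cell surface. In R&Z del mice the exons of the RING domain were deleted in hepatocytes, either with an AAV8 virus that expresses Cre from the TBG promoter or with tamoxifen and a Cre-ERT2 driven by the albumin promoter, and other liver cells keep their alleles. R&Z flox controls received a null virus or the oil vehicle. Livers were collected without damage at 1, 3 and 7 months after deletion (1M, 3M, 7M), at 7 and 21 days after partial hepatectomy (PHx), and at 4, 50 and 170 days of recovery from chronic damage by repeated CCl4 injections (CD). The 1M and PHx livers and the 3M livers of batch 2 had the virus, whereas the 7M livers and all livers of batch 1 had tamoxifen. Of 53 libraries, 48 were assigned to a group: 25 undamaged (18 in batch 2 and 7 in batch 1), 12 PHx in batch 2 and 11 CD in batch 1, the CD mice all listed as male. The title and the other labels disagreed for R&Z del 3M replicate 4 and R&Z flox 7M replicate 5, which were placed by their genotype, damage and time point, and the 5 unassigned libraries had labels in conflict with each other or with the study's sample list. Total counts per library ranged from 11721687 to 38692089 with a median of 22982428. Levels are given as CPM, the count of a gene scaled to the total of its library. Changes are log2 ratios between genotypes (positive where R&Z del is higher) with their standard error, from edgeR's quasi-likelihood model after TMM scaling, and a gene was called at a Benjamini-Hochberg adjusted p below 0.1 over all genes tested. In whole liver, fewer cells of a type and less RNA per cell cannot be told apart.

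In the mm10 annotation, Fads1 (chr19:10182877-10196874, plus strand) and Fads2 (chr19:10062765-10101503, minus strand) lie 81.4 kb apart and are transcribed away from each other. Elovl3 lies on the same chromosome (chr19:46131897-46135694, plus strand). Elovl1 is at chr4:118426874-118432953 (plus), Elovl2 at chr13:41182382-41220403 (minus), Elovl5 at chr9:77917365-77984519 (plus), Acsl1 at chr8:46471037-46536051 (plus) and Lpcat3 at chr6:124663094-124704716 (plus). Reads were counted over exons without regard to strand. Fads1, Fads2, Elovl2 and Elovl5 share no exonic base with another gene. Exons of Elovl1 overlap 53 bases of Cdc20, those of Elovl3 414 bases of Pitx3, those of Acsl1 14 bases of Gm31050 and those of Lpcat3 289 bases of Emg1, all on the opposite strand, and reads in these stretches cannot be assigned to either gene.

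Per kilobase of exon, the desaturases and Elovl5 had the highest medians of the members in undamaged livers of batch 1, with both sexes together. Batch 1 is the batch whose files give gene lengths. In 4 R&Z flox livers the median level was 180.2 CPM per kb for Elovl5, 151 for Fads2, 109 for Fads1, 106 for Elovl3, 67.8 for Acsl1, 65.0 for Elovl2, 47.3 for Lpcat3 and 15.8 for Elovl1. Some neighbours in this order overlapped between livers: Elovl5 ranged from 60.2 to 285 CPM per kb and Elovl3 from 4.88 to 302, across the ranges of Fads2 (132 to 160) and Fads1 (103 to 123), and Acsl1 (60.8 to 84.9) overlapped Elovl2 (51.8 to 69.6). The ranges of Fads1 and Fads2 did not overlap, nor did those of Elovl2 and Lpcat3 (41.9 to 51.8, with the lowest Elovl2 value just above), and Elovl1 (14.7 to 20.7) overlapped Elovl3 alone. The lowest Elovl3 value was that of the only female among these R&Z flox livers. The males had 51.3, 161 and 301.5 CPM per kb, so the place of Elovl3 in this order depends on the sexes included. In 3 R&Z del livers, again with a single female, Fads2 stood first with a median of 380 CPM per kb (347 to 507). Fads1 followed with 225 (163 to 237), and both were above every R&Z flox liver of that batch.

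The RefSeq promoter table (GRCm38.p6) held 6 of the 8 members with 9 start sites, and Fads1 and Elovl3 had no entry. The 250 bases before 4 of these starts are shown, because Fads2, Elovl2 and Elovl5 are among the genes that changed, and because of the match at Acsl1. They are printed 5′ to 3′ on the strand of the gene, with capitals for letters that matched, on either strand, TCACNCCAC (a sterol regulatory element, in 1.053% of 32851 promoter windows of this length), CCAAT (in 33.85%), CACGTG (an E-box, in 6.021%) or GGGCGG (a GC box, in 32.74%).
Fads2, chr19:10101504-10101753, minus strand: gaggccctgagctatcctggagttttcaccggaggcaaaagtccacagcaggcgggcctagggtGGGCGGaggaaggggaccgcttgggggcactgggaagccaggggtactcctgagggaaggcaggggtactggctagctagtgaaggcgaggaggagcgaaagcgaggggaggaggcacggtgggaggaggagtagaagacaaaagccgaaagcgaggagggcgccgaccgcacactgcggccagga
Elovl2, chr13:41220404-41220653, minus strand: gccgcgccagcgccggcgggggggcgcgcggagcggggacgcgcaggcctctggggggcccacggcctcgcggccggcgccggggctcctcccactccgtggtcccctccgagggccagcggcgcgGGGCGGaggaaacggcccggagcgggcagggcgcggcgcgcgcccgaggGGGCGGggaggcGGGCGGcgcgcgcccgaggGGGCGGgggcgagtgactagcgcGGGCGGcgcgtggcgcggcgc
Elovl5, chr9:77917115-77917364, plus strand: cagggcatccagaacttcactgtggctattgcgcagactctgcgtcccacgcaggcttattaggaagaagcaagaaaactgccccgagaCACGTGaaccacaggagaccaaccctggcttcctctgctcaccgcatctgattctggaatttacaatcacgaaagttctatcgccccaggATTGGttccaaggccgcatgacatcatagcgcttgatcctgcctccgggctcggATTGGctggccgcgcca
Acsl1, chr8:46490716-46490965, plus strand: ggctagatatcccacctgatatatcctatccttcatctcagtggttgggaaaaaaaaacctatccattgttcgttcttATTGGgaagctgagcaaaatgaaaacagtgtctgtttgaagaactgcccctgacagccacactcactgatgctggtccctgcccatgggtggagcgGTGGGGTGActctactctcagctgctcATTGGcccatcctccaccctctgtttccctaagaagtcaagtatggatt
The window of Fads2 held 1 GC box and that of Elovl2 held 5, with none of the other motifs. Elovl5 had the E-box, 161 bases before the start, and 2 inverted CCAAT boxes. Of the 9 windows, the internal start of Acsl1 alone held a sterol regulatory element match, GTGGGGTGA on the reverse strand, whose first base lay 76 bases before the start, between 2 inverted CCAAT boxes. In addition, the window of Lpcat3 held 3 CCAAT and 5 GC boxes. These are matches of letters and not measured binding sites.

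The labels were checked on the targeted genes first. At 1M, whole-gene counts of Rnf43 and Znrf3 were higher in R&Z del livers, with 46.9 to 52.2 against 3.34 to 17.9 CPM for Rnf43 (log2 2.22 ± 0.49, adjusted p = 0.0471) and 40.7 to 117 against 8.93 to 29.5 CPM for Znrf3 (1.82 ± 0.32, adjusted p = 0.00434). Both were also called higher at CD 4 d (1.71 ± 0.30 and 1.91 ± 0.22), and Znrf3 alone at PHx 21 d (1.80 ± 0.31) and CD 170 d (1.22 ± 0.21). Neither was called at 3M, 7M, PHx 7 d or CD 50 d, where the fitted changes of the 2 genes ran from 0.26 to 1.51. Rnf43 overlapped between genotypes at PHx 21 d, where R&Z flox replicate 3 had 57.98 CPM and R&Z del replicate 1 had 46.96 CPM, and in batch 2 at 3M, where R&Z flox replicate 5 had 29.4 CPM and the R&Z del liver 25.7 CPM. Such counts include the exons that remain and so do not show the deletion itself. The library listed as male and labelled R&Z flox PHx 7 d replicate 3 stood apart: its Y-linked transcripts summed to 0.0591 CPM, against 24.5 to 130 in the other 40 listed males and 0 to 0.121 in the 7 listed females. The members' results that include it are therefore also given with it set to female or left out. Hepatocyte markers were abundant at 1M, with a sum over Alb, Apoa1, Ttr, Hnf4a and Serpina1c of 108600 to 125200 CPM in R&Z flox and 61130 to 80200 CPM in R&Z del livers, of which Alb fell by 1.45 ± 0.20 on the log2 scale (adjusted p = 0.000269). Summed cholangiocyte markers were low at 1M (61.7 to 141 and 48.3 to 81.5 CPM).

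The first question was whether the genes differ in the undamaged liver. The clearest differences were in the desaturases, of which Fads2 rose in R&Z del livers at 3M. At 1M, Fads2 was present at 190, 158, 159 and 133 CPM in R&Z flox and at 428, 457, 228 and 310 CPM in R&Z del livers. Fads1 was present at 473, 452, 407 and 492 CPM in R&Z flox and at 843, 899.7, 594 and 602 CPM in R&Z del livers. For both genes every R&Z del liver was above every R&Z flox liver, and the highest pair came from the 2 female mice. The fitted change was 0.98 ± 0.30 for Fads2 (1.97-fold, adjusted p = 0.261) and 0.50 ± 0.28 for Fads1 (adjusted p = 0.749), so neither passed the test. In the male mice alone the values were 0.51 ± 0.42 and 0.25 ± 0.42. The 2 female R&Z del livers also had 101 and 105 CPM of Dbp, a clock output gene that peaks late in the day, against 0 to 10.75 CPM in the other 6 livers at 1M, and the part of sampling time was not tested.

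At 1M, Elovl2 and Lpcat3 also ran higher without overlap. Elovl2, which elongates the precursors of docosahexaenoic acid, was at 409, 445, 479 and 467 CPM in R&Z flox and at 593, 701.5, 609 and 698 CPM in R&Z del livers (0.36 ± 0.23, adjusted p = 0.824). Lpcat3 was at 55.9 to 89.5 CPM in R&Z flox and at 101 to 169 CPM in R&Z del livers (0.63 ± 0.27, adjusted p = 0.544). In all, 0 of the 8 members were called at 1M, where 0.498% of 12848 genes were called, and 2 were higher at an unadjusted p below 0.05 and a log2 change above 0.4, a rule that 4.02% of genes passed with higher values. The groups did not overlap for 4 of 8 members, all higher in R&Z del livers, both in CPM (4.19% of genes higher) and after TMM scaling (2.26%). The 6 members that did not reach an unadjusted p below 0.05 had log2 changes from -0.34 to 0.50. Over the genes tested, the median CPM ratio of R&Z del to R&Z flox was 0.15 on the log2 scale at 1M, 0.01 at 3M and -0.09 at 7M, and the fitted changes are relative to this shift.

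At 3M, 1 of 8 members was called, against 0.226% of all genes. In batch 2, Fads2 was at 93.1, 141 and 68.6 CPM in R&Z flox livers and at 371 CPM in the R&Z del liver, and in batch 1 at 385 and 429 CPM in R&Z flox and at 1103 CPM in the R&Z del liver, the only female of this group. Each R&Z del liver stood above the R&Z flox livers of its own batch, while R&Z flox levels of the batches did not overlap. Fads2 rose by 1.65 ± 0.36 (3.13-fold, adjusted p = 0.0615). An unassigned female library of batch 1 is wild type by its genotype label and mutant in the sample list of the study. It had 36.5 CPM of Rnf43 and 32.6 CPM of Znrf3. The R&Z del liver of batch 1 at 3M had 30.7 and 25.9 CPM. The R&Z flox livers of batch 1 at 3M had 7.135 and 10.54 CPM of Rnf43 and 5.545 and 8.554 CPM of Znrf3. Such counts do not show the deletion, and the library stayed unassigned. Added as R&Z del, this library gave a change of Fads2 of 1.63 (adjusted p = 0.0204), and added as R&Z flox, 1.21 (adjusted p = 1). Without the R&Z flox replicates 2 (batch 1), 3 or 5 (both batch 2) its adjusted p was 0.108, 0.143 and 0.102, and without the R&Z del replicates 1 or 4 it was 1 and 0.199, with changes from 1.48 to 1.71. The change of Fads2 was 1.87 ± 0.44 in batch 2 alone (adjusted p = 0.152) and 1.59 ± 0.55 in batch 1 alone (adjusted p = 0.788). Summed hepatocyte markers at 3M were at 65460 and 81940 CPM in R&Z del and at 96900 to 122000 CPM in R&Z flox livers, and of the 5 markers Alb alone was called (-1.14 ± 0.25, adjusted p = 0.0687). The R&Z del liver of batch 1 had 104 CPM of Dbp against 2.24 and 20.6 CPM in the R&Z flox livers of its batch, while the 4 livers of batch 2 had 0 to 5.34 CPM. The part of these differences in the change of Fads2 was not tested. Fads1 was at 253, 404 and 129 CPM against 634 CPM in batch 2, and at 366 and 407 CPM against 839.9 CPM in batch 1 (1.11 ± 0.34, adjusted p = 0.363). Elovl2 was at 264, 379.5 and 502.3 CPM against 525 CPM in batch 2, and at 263 and 253 CPM against 486 CPM in batch 1 (0.61 ± 0.28, adjusted p = 0.763). These 3 members passed the unadjusted rule with higher values, as did 4.09% of genes, and the 5 others had changes from -0.36 to 0.64.

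At 7M, 0 of 8 members were called, where 0.576% of genes were, and the batches differed in which member stood out. In batch 1, Fads2 was at 465 and 448 CPM in R&Z flox and at 1473 and 1010 CPM in R&Z del livers, and Fads1 at 367 and 436 CPM against 796 and 578 CPM. In batch 2, Fads2 was at 177, 218 and 356 CPM in R&Z flox and at 285, 365 and 214 CPM in R&Z del livers, and Fads1 at 530, 413 and 684 CPM against 549.8, 679 and 401 CPM. The desaturases thus overlapped between genotypes in batch 2 and not in batch 1. The fitted change of Fads2 was 1.36 ± 0.39 in batch 1 alone (adjusted p = 0.621), 0.26 ± 0.33 in batch 2 alone (adjusted p = 0.927) and 0.72 ± 0.28 over both (adjusted p = 0.427), and that of Fads1 was 0.85 ± 0.36, 0.07 ± 0.33 and 0.37 ± 0.26 (adjusted p = 0.749 over both). Elovl2 showed the larger value in batch 2, with 418, 380.4 and 598 CPM against 800.2, 661 and 931 CPM (0.89 ± 0.25), while batch 1 had 205 and 276 CPM against 332 and 280.1 CPM (0.51 ± 0.31). Over both batches Elovl2 was 0.77 ± 0.21 (adjusted p = 0.156), and without R&Z del replicate 2 or 4 it passed the threshold (0.89, adjusted p = 0.0854, and 0.84, adjusted p = 0.0541). The unadjusted rule was met with higher values by 2 members, Fads2 and Elovl2, and by 5.53% of genes, and the other 6 ranged from -0.81 to 0.37.

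**Figure D1:**
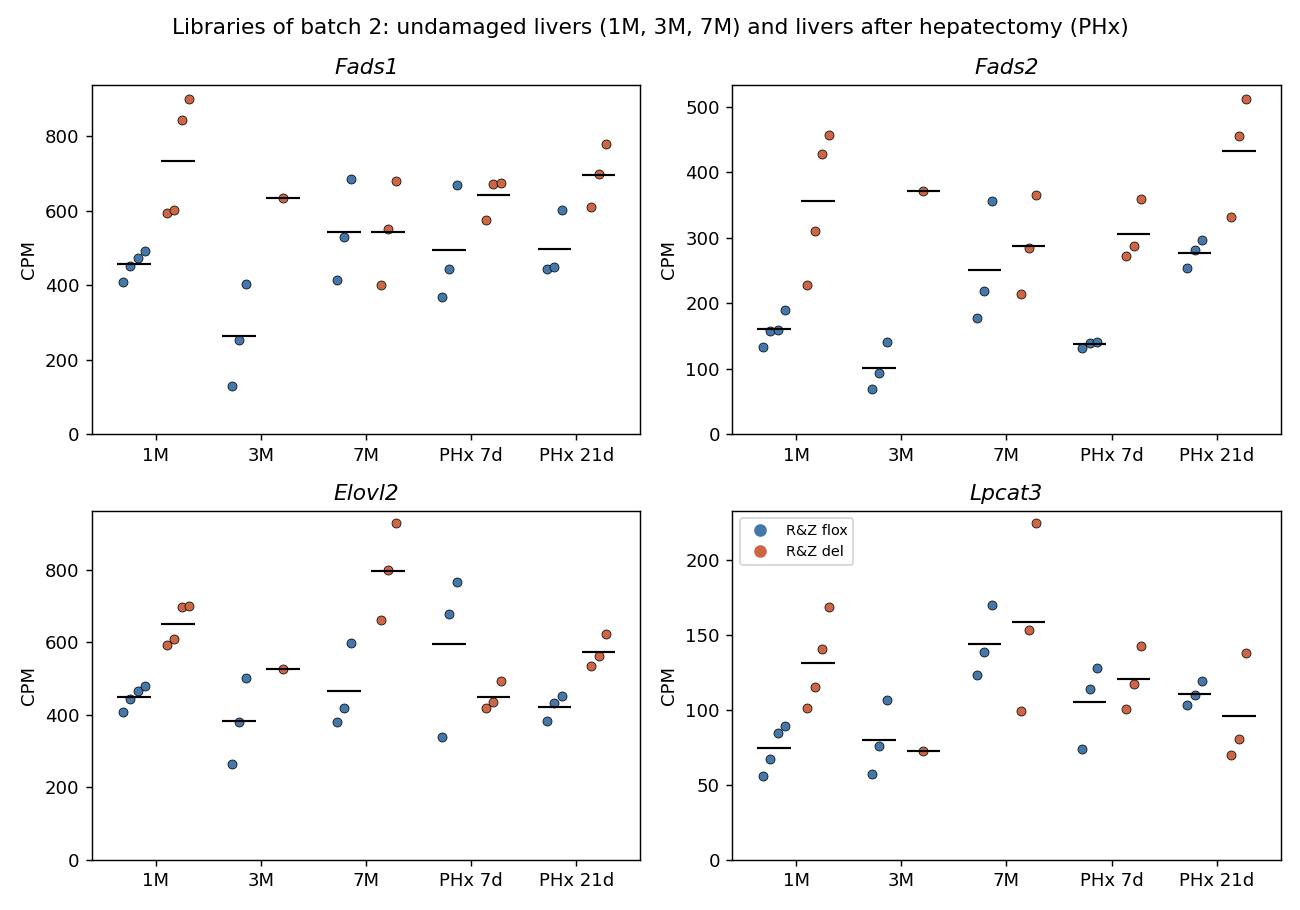
CPM of Fads1, Fads2, Elovl2 and Lpcat3 (vertical axes) in each library of batch 2, by group (horizontal axes). Points are livers, bars are group means, and colours mark R&Z flox and R&Z del. At 1M all 4 genes are higher in each R&Z del liver, as Fads2 is at PHx 7 d with 273 to 359 against 131 to 141 CPM.

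The genotype effect of the undamaged livers was compared between months by the interaction term. None of the 8 members passed for 3M minus 1M, 7M minus 1M or 7M minus 3M, and neither did any other gene (0% in each, while 5.1%, 5.85% and 4.18% of genes and 0 members passed the unadjusted rule). The estimates of the members ranged from -0.75 to 0.83, from -0.62 to 0.41 and from -1.45 to 0.39, with unadjusted p of 0.0596 or more. All 1M livers were of the virus induction and all 7M livers of the tamoxifen induction, so month and induction cannot be told apart between them. Of 49 further genes listed for the same pathway, 44 were tested. At 1M and 7M 0 of them were called, and at 3M Hacd3, a dehydratase of the elongation cycle, rose by 1.11 ± 0.25 (adjusted p = 0.089).

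The sex term of the model, shared by both genotypes, was called for a single member. Elovl3 was at 120.6 to 1678 CPM (median 534) in 14 undamaged males of batch 2 and at 0 to 13.96 CPM in 4 females, and at 101 to 596 CPM in 5 males and 3.63 and 9.64 CPM in 2 females of batch 1. The sexes did not overlap in either batch. In 1 female R&Z del liver at 1M it had 0 counts, which allows up to 3 counts or 0.121 CPM. In the model of all undamaged livers it was higher in males by 6.65 ± 0.86 on the log2 scale (adjusted p = 1.68e-05), and by 7.92 ± 1.15 in the 8 livers at 1M alone (adjusted p = 0.0048). It was the only member called of 8, where 1.06% of genes were called, and the other 7 had male-over-female values from -0.14 to 0.17. A sex difference within a single genotype was not tested. At 1M the R&Z del females lay above the R&Z del males for Fads1, Fads2 and Lpcat3 (141 and 169 against 101 and 115 CPM for Lpcat3). In R&Z flox livers the sexes overlapped for these genes. Among the 44 tested genes of the pathway, Scp2, listed under peroxisomal chain shortening, rose in males by 1.47 ± 0.18 (adjusted p = 1.09e-05).

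Elovl3 also varied widely among males, within each genotype. In undamaged males of batch 2 it was at 651 and 633 CPM in R&Z flox and 1678 and 1282 CPM in R&Z del livers at 1M, at 435 to 877 CPM in R&Z flox and 1588 CPM in R&Z del livers at 3M, and at 161 to 200.3 CPM in R&Z flox and 121 to 201 CPM in R&Z del livers at 7M. Levels were thus lowest at 7M in both genotypes. Dbp ran the opposite way: it was at 0 to 10.75 CPM in the 8 males of batch 2 at 1M and 3M and at 91.8 to 162 CPM in the 6 males at 7M. Time of sampling was not given for the livers, and its part in the differences between months was not tested. In batch 2 the 1M and 3M livers were of the virus induction and the 7M livers of the tamoxifen induction. Month and induction therefore cannot be told apart in this comparison. The genotype changes of Elovl3 did not pass the test at any month, with standard errors between 0.79 and 0.92.

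**Figure D2:**
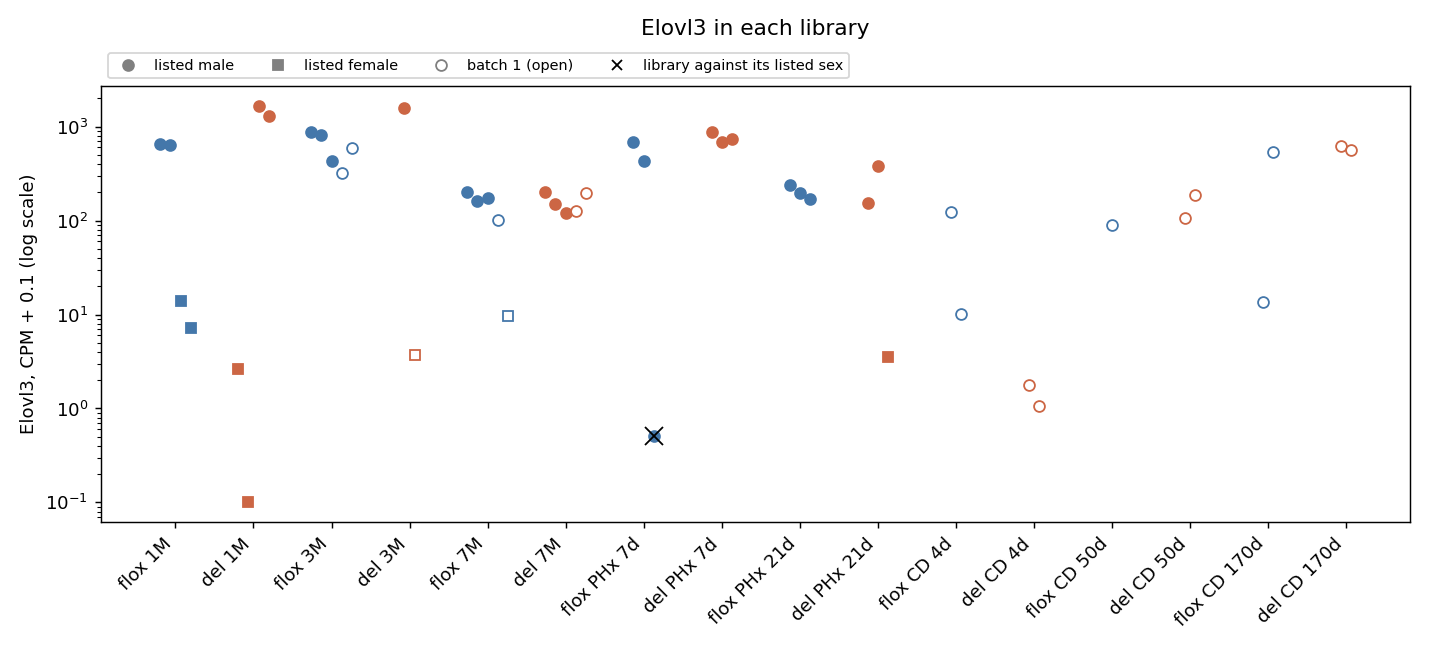
Elovl3 in every assigned library, as CPM + 0.1 on a logarithmic vertical axis, by group (horizontal axis). Squares are mice listed as female, circles males, open symbols batch 1, and a cross marks the PHx library whose Y-linked transcripts were near 0. Female livers lie at 0 to 13.96 CPM, and the male R&Z del livers 4 d after CCl4 lie below 2 CPM.

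The next comparison asked how the genes differed during regeneration after PHx. At 7 d, Fads2 rose in R&Z del livers, with 131, 139 and 141 CPM in R&Z flox and 359, 287 and 273 CPM in R&Z del livers. All 3 R&Z del livers were above all R&Z flox livers, by 1.08 ± 0.25 (2.11-fold, adjusted p = 0.0993). It was the only 1 of 8 members called, against 0.352% of 12773 genes. The call did not hold without any 1 of the 6 libraries: the change was 1.05, 1.08 and 1.10 without R&Z flox replicates 1, 2 and 3 (adjusted p = 0.291, 0.185 and 0.338) and 0.93, 1.10 and 1.19 without R&Z del replicates 1, 2 and 3 (adjusted p = 0.361, 0.263 and 0.157). With the R&Z flox replicate 3 set to female the change of Fads2 was 1.07 ± 0.26 (adjusted p = 0.129). Summed hepatocyte markers were lower without overlap, at 64920 to 86110 CPM in R&Z del and 118900 to 145200 CPM in R&Z flox livers, and Alb alone of the 5 was called (-1.53 ± 0.25, adjusted p = 0.00616). All 5 cholangiocyte markers and all 4 macrophage markers had lower fitted values (medians -1.30 and -1.25), with 0 called, and their sums overlapped between genotypes (29.6 to 81.7 against 75.6 to 111 CPM, and 39.3 to 103 against 58.1 to 227 CPM). Of 12 clock genes, 10 had lower values (median -1.38) and 0 were called, with sums of 86.3 to 150 CPM in R&Z del and 116 to 219 CPM in R&Z flox livers, while Dbp was at 0.0571 to 2.58 and 0.305 to 1.495 CPM. The part of other cell types and of sampling time in the change of Fads2 was not tested.

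Other members at PHx 7 d did not pass. Fads1 was at 444, 368 and 669.8 CPM in R&Z flox and at 673, 675 and 575 CPM in R&Z del livers (0.29 ± 0.21, adjusted p = 0.97), and its highest R&Z flox value belonged to replicate 3, without which the change was 0.58 ± 0.20 (adjusted p = 0.876). Elovl2 ran the other way, at 767, 339.6 and 678 CPM in R&Z flox and at 495, 436 and 418 CPM in R&Z del livers (-0.49 ± 0.23, adjusted p = 0.817). Without R&Z flox replicate 2 Elovl2 passed the threshold (-0.78, adjusted p = 0.0965), and without replicate 3 it was -0.38 ± 0.25. Elovl3 was at 679.9, 426 and 0.414 CPM in R&Z flox and at 883, 681 and 735 CPM in R&Z del livers, the lowest value being that of replicate 3. Its change was 0.97 ± 1.15 with this library as listed, 0.73 ± 0.80 with it set to female and 0.39 ± 0.85 without it. None of the 8 members was called in either refit. The other 6 members apart from Fads2 and Elovl2 had changes from -0.34 to 0.97. In CPM the groups did not overlap for 2 of 8 members, both higher, where 7.37% of genes were higher without overlap, and after TMM scaling for 1 member, Fads2, where 5.79% were. The unadjusted rule was met by Fads2 and Elovl2, 2 of 8, and by 5.83% of genes.

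At 21 d after PHx, 0 of 8 members were called (0.423% of genes). Fads2 was at 253, 282 and 296 CPM in R&Z flox and at 512, 455 and 332 CPM in R&Z del livers (0.53 ± 0.25, adjusted p = 0.569), the lowest of the latter being the only female. In the males alone Fads2 was 0.73 ± 0.22 (adjusted p = 0.25). Fads1 was at 448, 602 and 444 CPM against 610, 699 and 781 CPM (0.29 ± 0.22), and Elovl2 at 451, 433 and 382 CPM against 562, 624.6 and 534 CPM (0.34 ± 0.23). These 3 were higher in CPM without overlap, as were 8.12% of genes. After TMM scaling 0 members and 5.28% of genes were, the R&Z del livers having a median CPM ratio of 0.15 on the log2 scale over all genes. The unadjusted rule was met with a higher value by 1 member, Fads2, and by 4.04% of genes. With R&Z flox PHx 7 d replicate 3 left out or set to female, Fads2 at 21 d was 0.54 and 0.53. Hepatocyte markers summed to 63630 to 96410 CPM in R&Z del and 107000 to 123900 CPM in R&Z flox livers at 21 d, of which Alb fell by 1.09 ± 0.25 (adjusted p = 0.0849). Clock genes summed to 459 to 561 against 307 to 423 CPM, with 0 of 12 called, and the part of both was not tested. Of the pathway list, Nr1h2, a sterol-sensing nuclear receptor, rose by 1.98 ± 0.38 at 21 d (adjusted p = 0.0189) and 0 genes were called at 7 d.

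Against undamaged 1M livers of the same genotype, 0 of 8 members were called after PHx in R&Z flox livers at 7 d (0.0235% of genes) and at 21 d (0%), or in R&Z del livers at 7 d (0.0157%) and at 21 d (0%). By edgeR's unadjusted rule 0, 1, 1 and 0 members and 5.73%, 6.88%, 4.92% and 4.82% of genes passed. With DESeq2, 212, 352, 209 and 190 genes were called in these comparisons, among them Fads2 in R&Z flox livers at 21 d (0.82, adjusted p = 0.0568). Fads2 in R&Z flox livers was at 133 to 190 CPM at 1M, 131 to 141 CPM at PHx 7 d and 253 to 296 CPM at PHx 21 d. It was higher at 21 d than at 1M in each liver (0.83 ± 0.25, adjusted p = 0.492). Elovl2 in R&Z del livers was at 593 to 701.5 CPM at 1M and at 418 to 495 CPM at PHx 7 d, again without overlap (-0.51 ± 0.23, adjusted p = 0.984). The genotype effect of Elovl2 at PHx 7 d minus that at 1M was -0.86 ± 0.30 (adjusted p = 1), and that of Lpcat3 at PHx 21 d minus 1M was -0.96 ± 0.41 (adjusted p = 0.837). Between PHx 21 d and 7 d it was 0.83 ± 0.33 for Elovl2 (adjusted p = 0.774). None of the 8 members passed in these 3 tests of the difference, where 0% of genes did, and 1 member in each and 4.75%, 5.76% and 6.05% of genes met the unadjusted rule. Refits with R&Z flox PHx 7 d replicate 3 set to female or left out gave no call of a member in R&Z flox livers at 7 d against 1M or in the tests of the difference that include this group. The Elovl2 difference at PHx 7 d minus 1M was then -0.86 and -0.74, and that between PHx 21 d and 7 d was 0.81 and 0.72. In R&Z flox livers at 7 d against 1M, Elovl3 was -1.79 ± 1.31 as listed, -1.84 ± 0.88 with the library as a female and -1.19 ± 0.96 without it, and Fads1 went from 0.17 to -0.12 without it. The differences that changed sign in a refit were those of Fads1 (-0.21 to 0.08 without it) and Acsl1 (0.02 to -0.00042 as a female) for PHx 7 d minus 1M, and that of Elovl3 between PHx 21 d and 7 d (-0.29 to 0.11 and 0.28). These comparisons share the undamaged livers.

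Of the genotype comparisons, the one at 4 d after the last CCl4 injection had the most members called, in the opposite direction. Fads2 was at 733 and 968 CPM in R&Z flox and at 496 and 399.9 CPM in R&Z del livers, and Fads1 at 483 and 563 CPM against 303 and 307.5 CPM. Elovl2 was at 452 and 524 CPM in R&Z flox and at 159 and 152 CPM in R&Z del livers. Both R&Z del livers were below both R&Z flox livers for the 3 genes. Elovl2 fell by 2.13 ± 0.25 (4.38-fold lower, adjusted p = 0.00168), Fads2 fell by 1.40 ± 0.26 (2.64-fold lower, adjusted p = 0.00875) and Fads1 fell by 1.26 ± 0.25 (2.40-fold lower, adjusted p = 0.0118). These 3 calls held without any 1 of the 4 libraries, with adjusted p of at most 0.0216, 0.0761 and 0.0879.

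Of the other elongases, Elovl5 and Elovl3 fell and Elovl1 did not pass. Elovl5, which elongates the product of Fads2, was at 866 and 1025 CPM in R&Z flox and at 437 and 458 CPM in R&Z del livers (-1.57 ± 0.53, adjusted p = 0.0694). Elovl3 was at 123 and 9.92 CPM in R&Z flox and at 1.67 and 0.952 CPM in R&Z del livers, from 46 and 29 reads (-6.15 ± 1.68, adjusted p = 0.0353). Both R&Z del values lay below those of the 2 undamaged females of batch 1 (3.63 and 9.64 CPM). The lower R&Z flox value, 9.92 CPM, lay just above these females. Elovl1 was at 98.7 and 119 CPM against 97.3 and 130.1 CPM (-0.44 ± 0.22, adjusted p = 0.192). The call of Elovl5 was lost without any 1 library, with -1.66 and -1.46 without R&Z flox replicates 1 and 2 and -1.61 and -1.51 without R&Z del replicates 1 and 2 (adjusted p = 0.18 to 0.24). That of Elovl3 was lost without R&Z flox replicate 1 (-3.37, adjusted p = 0.211) and R&Z del replicates 1 and 2 (-6.69 and -5.72, adjusted p = 0.119 and 0.182).

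Acsl1, which activates long-chain fatty acids, and Lpcat3 fell as well. Acsl1 was at 289 and 322.5 CPM in R&Z flox and at 219.8 and 168 CPM in R&Z del livers (-1.13 ± 0.29, adjusted p = 0.027), and Lpcat3 at 114 and 138 CPM against 107 and 101 CPM (-0.75 ± 0.20, adjusted p = 0.0296). Acsl1 lost its call without R&Z flox replicates 1 and 2 (-1.19 and -1.07, adjusted p = 0.113 for each) and R&Z del replicate 2 (-0.87, adjusted p = 0.171), and Lpcat3 without R&Z flox replicate 2 (-0.63, adjusted p = 0.155) and R&Z del replicate 2 (-0.62, adjusted p = 0.183). In all, 7 of 8 members fell, where 27.6% of 11358 genes were called and 13% were called lower, and the median change of the members was -1.33 against 0.06 for all genes tested.

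The CD 4 d values rest on a shift in scale. Over all genes the median CPM ratio of R&Z del to R&Z flox was 0.52 on the log2 scale, with TMM factors of 1.27 to 1.42 in R&Z del and 0.93 to 0.955 in R&Z flox livers, and the fitted changes are relative to it. In CPM the groups did not overlap for 7 of 8 members, all lower, where 10.1% of genes were lower without overlap, and after TMM scaling for 8 of 8 members, where 31.8% of genes were.

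Other cell types moved with the genotype at CD 4 d. All 5 cholangiocyte markers rose in R&Z del livers, with a sum of 3490 to 6224 CPM against 86.4 to 157 CPM and no marker at 0. Of the 4 stellate cell and fibroblast markers 2 rose, with a sum of 177 to 539 against 43.6 to 71.7 CPM. The sum of 4 macrophage markers was 253 to 408 against 283 to 381 CPM, and that of 4 lymphocyte markers 30.8 to 66.2 against 12.2 to 25.1 CPM, with 0 of 4 macrophage and 0 of 3 tested lymphocyte markers called. The 5 hepatocyte markers summed to 71570 to 88210 CPM in R&Z del and 92370 to 94600 CPM in R&Z flox livers, and 1 of them, Serpina1c, fell (-1.23 ± 0.35, adjusted p = 0.0408). Of 7 male-biased liver genes 6 were called lower, among them Cyp4a12a (-5.11 ± 0.60, adjusted p = 0.00179). The part of cell composition and of these sex-biased genes in the change of the members was not tested.

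**Figure D3:**
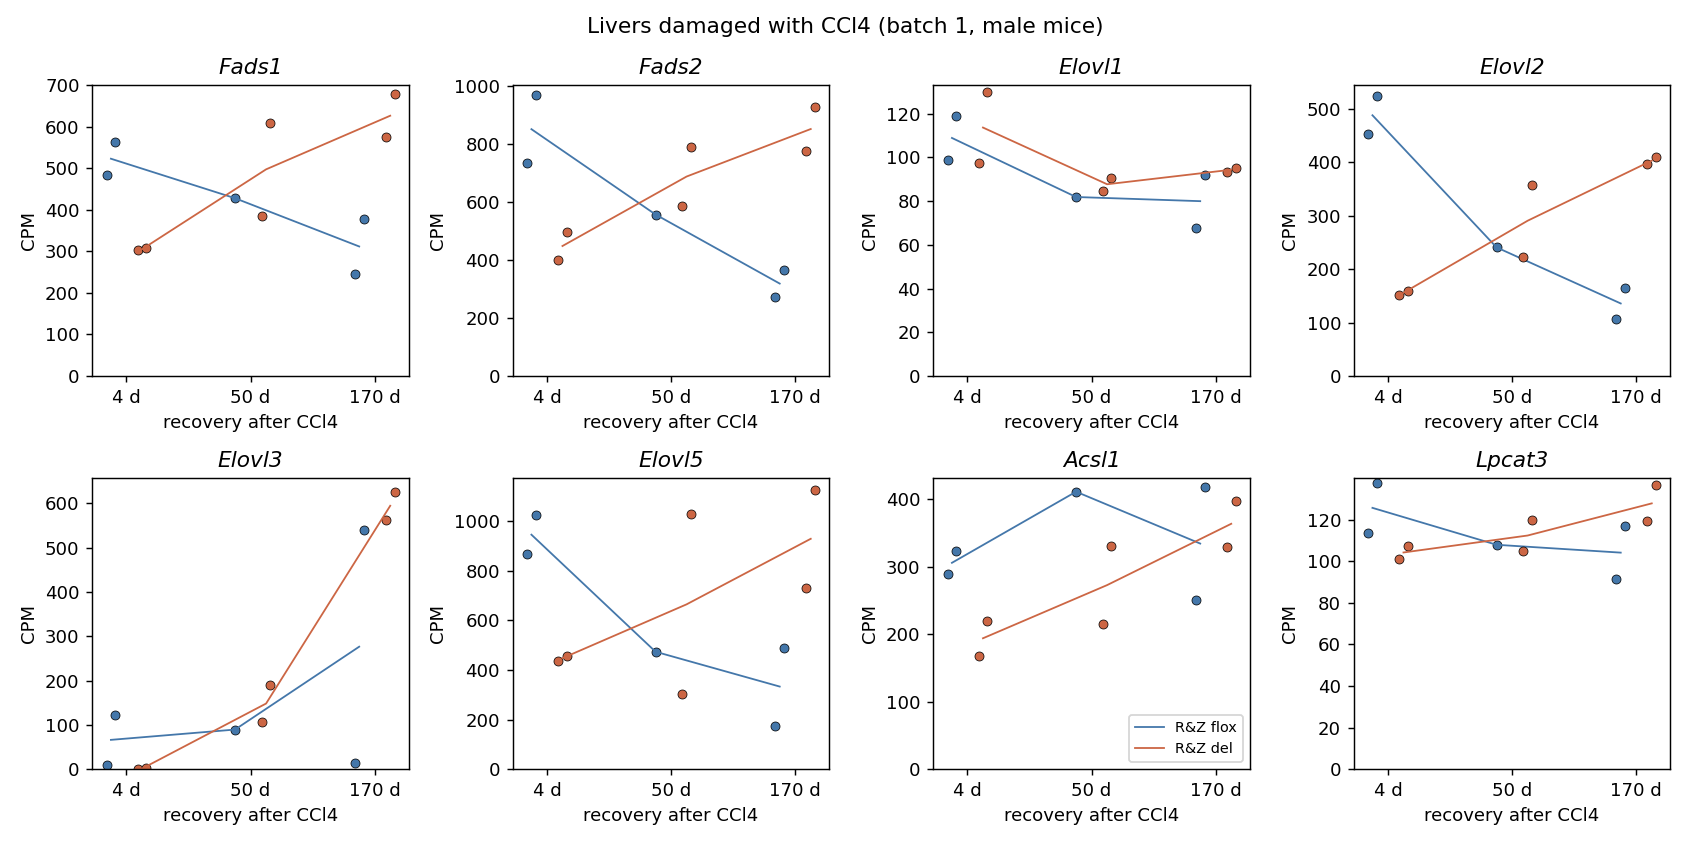
CPM of the 8 members (vertical axes) in livers 4, 50 and 170 d after chronic CCl4 damage (horizontal axes, days), batch 1. Points are livers and lines join the means of each genotype. Fads1, Fads2, Elovl2 and Elovl5 are lower in R&Z del livers at 4 d and higher at 170 d, as with Elovl2 at 152 to 159 against 452 to 524 CPM and then 396 to 409.6 against 107 to 165 CPM.

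At 50 d, with 1 R&Z flox and 2 R&Z del livers, 0 of 8 members were called, where 7.6% of genes were. The lone R&Z flox liver was assumed to vary like the other groups. The study's sample list gives both R&Z flox 170 d livers at 50 d as well, whereas their titles give 170 d, which was followed here. Fads1 was at 428 CPM in R&Z flox and 386 and 609.8 CPM in R&Z del livers, Fads2 at 556 CPM against 586 and 788 CPM, and Elovl2 at 240.5 CPM against 223 and 357 CPM. The R&Z flox value lay inside the range of R&Z del for Fads1 and Elovl2 and below it for Fads2, and the 3 fitted changes were -0.06 ± 0.30, 0.04 ± 0.31 and -0.00 ± 0.29. Acsl1 was at 411 CPM against 215 and 330.2 CPM (-0.86 ± 0.34, adjusted p = 0.172), and was the 1 member to meet the unadjusted rule, as did 23.1% of genes. The sum of cholangiocyte markers was 578 to 1131 CPM in R&Z del livers and 99.3 CPM in the R&Z flox liver.

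At 170 d, Elovl2 rose in R&Z del livers, with 107 and 165 CPM in R&Z flox and 409.6 and 396 CPM in R&Z del livers (1.37 ± 0.24, 2.58-fold, adjusted p = 0.0671). It was the 1 member of 8 called, against 0.643% of genes in either direction and 0.414% higher. Fads2 was at 272 and 364 CPM in R&Z flox and at 927 and 774 CPM in R&Z del livers (1.21 ± 0.25, adjusted p = 0.123), Fads1 at 245 and 379 CPM against 679 and 574 CPM (0.80 ± 0.25, adjusted p = 0.316), and Elovl5 at 176 and 491 CPM against 1126 and 732 CPM (1.27 ± 0.53, adjusted p = 0.489). These 4 genes, the whole of the desaturase and polyunsaturated elongase steps among the members, met the unadjusted rule with higher values, as did 4.46% of genes. The 4 others had changes from -0.08 to 0.90. In CPM 7 of 8 members were higher without overlap, as were 41.3% of genes, and after TMM scaling those 4 members were, as were 19% of genes. At this time the paper reports hepatocellular or mixed liver tumours in most R&Z del mice and in none of the damaged controls. The labels used here do not say whether the sequenced tissue held tumour, and the part of tumours in these changes was not tested.

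The calls at 170 d turned on single livers. Elovl2 lost its call without R&Z flox replicate 1 (1.08, adjusted p = 0.178), R&Z del replicate 1 (1.34, adjusted p = 0.249) and R&Z del replicate 2 (1.39, adjusted p = 0.351). Without R&Z flox replicate 2, Fads1 (1.16, adjusted p = 0.0633), Fads2 (1.44, adjusted p = 0.0536) and Elovl5 (2.20, adjusted p = 0.0911) passed the threshold. The R&Z flox livers differed from each other in Elovl3 (13.57 CPM in replicate 1 and 539 CPM in replicate 2) and in Dbp (63.2 and 2.02 CPM), whereas the R&Z del livers had 625.3 and 563 CPM of Elovl3 and 3.19 and 12.9 CPM of Dbp. The part of sampling time was not tested. Cholangiocyte markers summed to 244.1 to 293 CPM in R&Z del and 56.0 to 244.1 CPM in R&Z flox livers. Hepatocyte markers summed to 63980 to 66720 CPM in R&Z del and 78170 to 115500 CPM in R&Z flox livers, without overlap, with 4 of 5 lower and 0 called. Male-biased liver genes summed to 4460 to 5919 CPM in R&Z del and 1615 to 2472 CPM in R&Z flox livers, also without overlap, with 6 of 7 higher (median 1.11) and 0 called. The part of these lists in the changes at 170 d was not tested.

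Whether the genotype effect differed between 170 d and 4 d was tested by the interaction term. In all, 5 of 8 members passed, each with a higher effect at 170 d, where 7.66% of genes passed in either direction and 3.74% with a higher effect. The difference was 3.50 ± 0.34 for Elovl2 (adjusted p = 0.00786), 2.61 ± 0.36 for Fads2 (adjusted p = 0.0162), 2.07 ± 0.35 for Fads1 (adjusted p = 0.0247), 2.84 ± 0.75 for Elovl5 (adjusted p = 0.0752) and 7.05 ± 2.09 for Elovl3 (adjusted p = 0.0999). Elovl2, Fads2 and Fads1 passed without any 1 of the 8 libraries, with adjusted p of at most 0.0549, 0.0651 and 0.0922. Elovl5 passed in only 1 of these 8 fits, without R&Z flox 170 d replicate 2 (3.77, adjusted p = 0.0116), and in the other 7 had values from 2.28 to 3.12 and adjusted p of 0.145 to 0.194. Elovl3 passed in 2, without R&Z flox 170 d replicate 1 or 2 (6.09 and 11.41), and was 4.27 without R&Z flox 4 d replicate 1 (adjusted p = 0.308). Acsl1 and Lpcat3 had differences of 1.05 ± 0.40 (adjusted p = 0.168) and 0.85 ± 0.28 (adjusted p = 0.121). Between 50 d and 4 d, Elovl2 alone passed (2.13 ± 0.39, adjusted p = 0.0553, 1.5% of genes). It lost this call without R&Z del 4 d replicate 2 (2.02, adjusted p = 0.171), R&Z del 50 d replicate 1 (2.32, adjusted p = 0.112) and R&Z flox 4 d replicates 1 and 2 (2.25 and 2.08, adjusted p = 0.162 and 0.154).

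**Figure D4:**
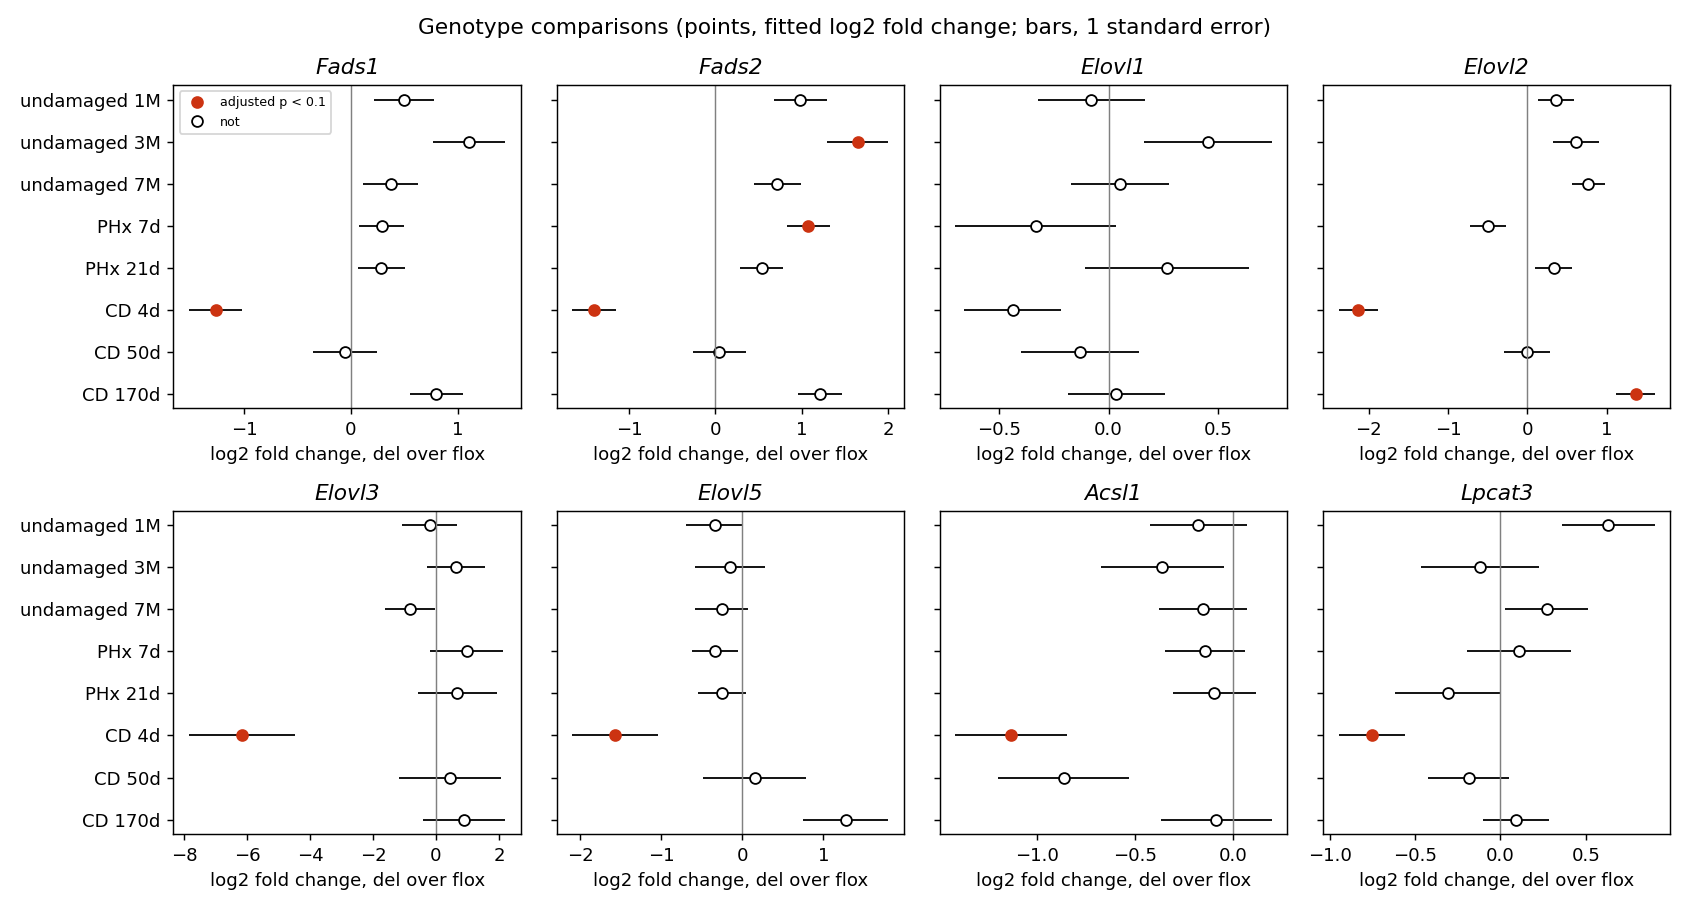
Fitted log2 change between genotypes, positive where R&Z del is higher (horizontal axes), with 1 standard error for the 8 members in 8 comparisons. Filled points have an adjusted p below 0.1. Fads2 is filled at 3M, PHx 7 d and CD 4 d, Elovl2 at CD 4 d and CD 170 d, and 7 members are filled on the lower side at CD 4 d.

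Each genotype was then followed over the recovery. In R&Z del livers, 7 of 8 members were lower at 4 d than at 170 d, where 39.4% of genes were called and 18.3% lower: Elovl3 (-9.30 ± 1.89, adjusted p = 0.00886), Elovl2 (-1.86 ± 0.24, adjusted p = 0.00222), Elovl5 (-1.55 ± 0.53, adjusted p = 0.0549), Fads1 (-1.53 ± 0.25, adjusted p = 0.00429), Fads2 (-1.41 ± 0.26, adjusted p = 0.006), Acsl1 (-1.39 ± 0.29, adjusted p = 0.00942) and Lpcat3 (-0.78 ± 0.20, adjusted p = 0.0183). Elovl5 lost this call without R&Z del 4 d replicates 1 and 2 (-1.59 and -1.49, adjusted p = 0.153 and 0.205) or 170 d replicate 1 (-1.20, adjusted p = 0.228), and Lpcat3 without 4 d replicate 2 (-0.65, adjusted p = 0.133) or 170 d replicate 1 (-0.68, adjusted p = 0.109). In R&Z flox livers, 2 of 8 members were called (5.55% of genes), both higher at 4 d (2.77%): Elovl2 by 1.64 ± 0.24 (adjusted p = 0.0114) and Fads2 by 1.21 ± 0.25 (adjusted p = 0.0449). Fads2 lost this call without 4 d replicate 2 (1.02, adjusted p = 0.309) or 170 d replicate 1 (1.00, adjusted p = 0.131). Elovl5 was higher by 1.29 ± 0.53 without passing (adjusted p = 0.227), and passed without 170 d replicate 2 (2.22, adjusted p = 0.0648). These comparisons share their livers with the genotype comparisons at 4 d and 170 d, and the part of the tumours reported at 170 d was not tested in them either. Elovl2, which was lower in R&Z del livers at 4 d, was thus at its highest CD level in R&Z flox livers at that time.

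Against undamaged male R&Z flox livers of batch 1, which were 3M livers because batch 1 has no 1M livers, 0 of 8 members were called in R&Z flox livers at CD 4 d, where 3.67% of genes were. Fads2 was at 385 and 429 CPM undamaged and at 733 and 968 CPM at CD 4 d (0.93 ± 0.28, adjusted p = 0.123), and Elovl2 at 263 and 253 CPM against 452 and 524 CPM (0.80 ± 0.24, adjusted p = 0.119). Both were higher in each damaged liver. Elovl3 was at 318 and 596 CPM undamaged against 123 and 9.92 CPM (-2.91 ± 1.28, adjusted p = 0.295), and Acsl1 at 582 and 509 CPM against 289 and 322.5 CPM (-0.95 ± 0.37, adjusted p = 0.229). These 4 members met the unadjusted rule, as did 15.6% of genes. With DESeq2, Fads2 and Elovl2 passed the threshold in this comparison (adjusted p = 0.0215 and 0.0226).

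Of the 44 further pathway genes tested, 15 fell and 4 rose in R&Z del livers at CD 4 d. Of the 3 genes listed as electron carriers of the desaturases, Cyb5b fell by 1.16 ± 0.25 (adjusted p = 0.0156). Cyb5r3, the cytochrome b5 reductase, fell by 0.71 ± 0.27 (adjusted p = 0.0969). The sum of this list ran the other way in CPM, without overlap. It was 3206 to 3683 CPM in R&Z del and 2459 to 2581 CPM in R&Z flox livers, so the list as a whole was not lower. In the elongation cycle Tecr, the enoyl reductase, fell by 0.84 ± 0.21 (adjusted p = 0.0256) and Hacd3 fell by 0.51 ± 0.17 (adjusted p = 0.0665), whereas Hacd2 rose by 0.88 ± 0.17 (adjusted p = 0.0107). In uptake and activation Slc27a5, a bile acid and very long-chain acyl-CoA synthetase, fell by 2.01 ± 0.30 (adjusted p = 0.00445), and Fabp1, Acsl5 and Slc27a2 fell by 1.18, 1.05 and 1.04. In peroxisomal chain shortening, the last step towards docosahexaenoic acid, Scp2 fell by 1.92 ± 0.32 (adjusted p = 0.00653) and Abcd3 fell by 1.08 ± 0.22 (adjusted p = 0.0137). Of the regulators, Scap, the escort of the sterol regulatory element-binding proteins, fell by 1.12 ± 0.20 (adjusted p = 0.00875) and Nr1h3, the liver X receptor alpha, fell by 0.58 ± 0.21 (adjusted p = 0.0849). Agpat3 fell by 0.49 ± 0.18 (adjusted p = 0.0889). Apart from Hacd2, the genes that rose were Degs2 by 4.31 ± 1.59 (adjusted p = 0.0898), Lpcat4 by 3.30 ± 1.13 (adjusted p = 0.0728) and Fads3 by 1.30 ± 0.39 (adjusted p = 0.0472).

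At CD 50 d, Scd2, a stearoyl-CoA desaturase, rose by 3.56 ± 1.02 (adjusted p = 0.0941), and Srebf1, a transcription factor of lipid synthesis, and Slc27a2 fell by 1.66 ± 0.33 (adjusted p = 0.0538) and 1.36 ± 0.29 (adjusted p = 0.0592), whereas at CD 170 d 0 of the 44 genes were called. Between CD 4 d and 170 d, 5 were higher and 19 lower at 4 d in R&Z del livers, among them Slc27a5 (-1.87 ± 0.30), Scp2 (-1.78 ± 0.32) and Cyb5b (-1.33 ± 0.25), and in R&Z flox livers 2 were higher (Lpcat2 and Acsl4, by 2.72 and 1.09) and 1 lower (Cyb5a, -0.88). In R&Z flox livers at CD 4 d against undamaged 3M livers, Scd2 was higher by 2.92 ± 0.74 (adjusted p = 0.0732) and Hacd2 was lower (-0.85 ± 0.21, adjusted p = 0.0732).

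The members were finally compared with each other over the 30 libraries of batch 2, as log2 CPM after the mean of each group was subtracted. Of 28 pairs, 2 passed both Pearson's and Spearman's test at an adjusted p below 0.05. The share of all gene pairs that would pass this rule was not determined, so the count does not set the members apart from other genes. The permutations treated the 30 deviations as independent although group means had been subtracted. The permutation p-values are therefore too low, and whether a pair near the threshold would still pass was not tested. For Fads1 and Fads2, r was 0.655 (two-sided permutation p = 0.00011, adjusted p = 0.00308) and rho 0.588 (permutation p = 0.00084, adjusted p = 0.0235). Without the 2 libraries farthest from the median on the Fads1 axis r was 0.523, with sex removed 0.664, and in the 18 assigned libraries of batch 1 0.854. For Elovl5 and Acsl1, r was 0.548 (permutation p = 0.00192, adjusted p = 0.0269) and rho 0.559 (permutation p = 0.00169, adjusted p = 0.0237), with 0.583 without the 2 farthest libraries and 0.58 in batch 1. Elovl2 and Elovl5 passed Pearson's test (r = 0.501, permutation adjusted p = 0.0428) and not Spearman's (rho = 0.366, permutation adjusted p = 0.185). For other pairs the values of r were unlike: Fads1 with Elovl2 had 0.93 in batch 1 and 0.012 in batch 2, and Fads1 with Elovl5 0.88 and -0.033. Each group of batch 1 held only 1 or 2 libraries. After subtraction of the group mean, the deviations of a pair mirror each other and a single library adds nothing. All r values of batch 1 thus rest on fewer independent values than 18, and a difference between batches was not tested.

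Of 8491 genes, those whose deviations followed a member most closely over the same 30 libraries were Ssrp1 (r = 0.873), Ctsh and Dpy30 for Fads1, with the cholesterol synthesis gene Fdft1 in the fourth place (r = 0.793), Mrpl35 (r = 0.732) for Fads2, Fgfr4 (r = 0.756) for Elovl2, Ppp2r2d (r = 0.724) for Elovl5, Palmd (r = 0.777) for Elovl1, Dhx33 (r = 0.83) for Acsl1 and Vps36 (r = 0.734) for Lpcat3. Elovl3 was followed by Mup3 (r = 0.952), Mup21, the Y-linked Ddx3y (r = 0.946), Ces3a and Hsd3b5 (r = 0.944), a male-biased steroid enzyme. The groups at 1M and PHx 21 d held both sexes, and 1 PHx library did not match its listed sex, so that these values include the difference between sexes.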

How the data were processed

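The authors prepared Smart-Seq2 libraries from whole-liver RNA, sequenced single reads, trimmed them, aligned them to mm10 with STAR 2.5.0a and counted them per gene with featureCounts (version 1.5.0-p3 in the batch 1 file headers, exons of the mm10 RefSeq annotation, strand not used). Per the labels' processing notes Trim Galore was used, whereas the methods name Sickle and, for the exons counted, a UCSC annotation of mm10, which is not the one in the batch 1 headers. The deposited values are raw counts, without normalization. Symbols of batch 1 (49997) and batch 2 (49568) were intersected. All columns had a sample. There were 2 samples without values, and 5 libraries with conflicting labels entered no main comparison.

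Models were fitted with edgeR 4.0.16 (R version 4.3.3): a CPM above 1 in at least 3 libraries (6 of 11 for CD), TMM, quasi-likelihood F test, Benjamini-Hochberg adjustment, two-sided. Models had a term per genotype and condition, with sex and batch for undamaged livers (25 libraries), sex for PHx (20 with the 1M livers) and none for CD (11) and for the CD against undamaged comparison (16 male libraries). Standard errors are the log2 change over the root of F. P-values measure the spread between livers. On simulated counts of 12848 genes at 1M, 4% of 2-fold and 30% of 4-fold changes were recovered, and of 11358 genes at CD 4 d, 32% and 91%. DESeq2 1.42.0, other filters, scalings and groupings, and leaving out each library, were alternatives. Same-numbered replicates were not paired by the labels, and the main models did not pair them. Their deviations correlated at 0.333 at CD 4 d and at -0.303 to 0.413 at 7M. In the other comparisons checked, every pair was below 0. The correlations used 100000 permutations and a prior count of 3. All members are named. Other pathway genes are named at an adjusted p below 0.1, up to 4 per list and comparison (some are not reported here), and genes alike are the 5 with the highest r among genes with a mean CPM above 5. The members and lists were chosen with earlier results of these data known.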

Additional observations from a re-analysis of the deposited data

Results flagged for a closer look

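In R&Z flox livers at 3M, replicate 5 had 1017 CPM of Acsl1, and the next highest liver had 618.6 CPM, a gap that exceeds Dixon's 95% limit. It was the only liver beyond this limit in 40 tests of a member in a group, where chance gives about 1 in 20. The genotype effect differed between times after CCl4 by the interaction test for the members named in the report. Between 50 d and 4 d this was Elovl2 (2.127 ± 0.39, adjusted p = 0.0553), which was near 0 at 50 d and lower in both R&Z del livers at 4 d. Between 170 d and 4 d these were Elovl2 (3.497 ± 0.34), Fads2 (2.615 ± 0.36), Fads1 (2.067 ± 0.35), Elovl5 (2.841 ± 0.75) and Elovl3 (7.052 ± 2.09). In CPM each had lower values in both R&Z del livers at 4 d and higher values in both at 170 d. After TMM scaling Elovl3 overlapped between genotypes at 170 d, where its fitted change was 0.90 ± 1.30.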

How the results depend on the processing

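Of the fitted changes of the members under all alternatives, 572 kept direction and side of the threshold, 60 lost the threshold, 40 gained it and 6 reversed. Scaling by DESeq2's size factors kept the number of genes called within 1.5 times in every comparison, and Fads2 at PHx 7 d went to an adjusted p of 0.112. The 6 reversals concerned CD 50 d, where the values were near 0: Elovl2 was 0.0107 with DESeq2's size factors and 0.0107 with DESeq2, and without R&Z del replicate 1 Fads1 was 0.136 and Elovl2 0.197 (leave-one-out ranges -0.17 to 0.136 and -0.13 to 0.197). With the R&Z flox 170 d livers taken as 50 d, they were 0.145 and 0.415. The causes of changed calls were not tested.

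Without the filter on low counts, genes called went from 64 to 137 at 1M, 29 to 75 at 3M, 74 to 126 at 7M, 45 to 125 at PHx 7 d, 54 to 186 at PHx 21 d, 863 to 2164 at CD 50 d, 73 to 778 at CD 170 d, 630 to 2016 between CD 4 d and 170 d in R&Z flox livers and 460 to 1461 between CD 4 d and undamaged R&Z flox livers. Against 1M the counts became 103 (from 3) at PHx 7 d and 110 (from 0) at 21 d in R&Z flox, and 74 (from 2) and 54 (from 0) in R&Z del livers. With the likelihood ratio test they were 204 at 1M, 60 at 3M, 115 at 7M, 78 at PHx 7 d, 136 at PHx 21 d, 1420 at CD 50 d and 312 at CD 170 d. With DESeq2 they were 346 at 1M, 145 at 3M, 263 at 7M, 372 for sex (from 136), 253 at PHx 7 d, about 5.0e+02 at PHx 21 d, 212 and 352 for PHx 7 d and 21 d against 1M in R&Z flox and 209 and 190 in R&Z del livers, 1481 at CD 50 d, 349 at CD 170 d, 1192 between CD 4 d and 170 d in R&Z flox livers and 955 between CD 4 d and undamaged livers. Fads2 passed at 1M without the filter (adjusted p = 0.0855) and with DESeq2 (adjusted p = 0.0583), and at CD 170 d without the filter (0.00181), with the likelihood ratio test (0.00339) and with DESeq2 (0.00034). Elovl2 at 7M passed with DESeq2 (adjusted p = 0.0181).

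In male mice alone 14 genes were called at 1M, 12 at 3M and 43 at 7M. In batch 1 alone 5 were called at 3M and 14 at 7M, and in batch 2 alone 22 at 7M. With 1 unassigned library as R&Z del 3M 49 were called, and as R&Z flox 3M 0. With both R&Z flox 170 d livers at 50 d, 3071 were called at CD 50 d. The alternatives for R&Z flox PHx 7 d replicate 3 were chosen after seeing the data: as a female, 0 genes were called at PHx 7 d against 1M in R&Z flox and 6 in R&Z del livers, and without it 24 at PHx 7 d, and 1 and 6 against 1M.

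Leaving out 1 library gave 36 to 53 genes at 1M, 10 to 32 at 3M, 42 to 328 at 7M, 21 to 64 at PHx 7 d, 30 to 83 at PHx 21 d, 1 to 17 and 0 to 3 for PHx 7 d and 21 d against 1M in R&Z flox and 2 to 4 and 0 to 22 in R&Z del livers, 899 to 2007 at CD 4 d (3135), 4 to 847 at CD 50 d, 7 to 389 at CD 170 d, 102 to 724 and 1964 to 3267 (4472) between CD 4 d and 170 d in R&Z flox and R&Z del livers, and 79 to 221 between CD 4 d and undamaged livers.

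With the replicate number as a block, 130 genes were called at 1M, 17 at 7M, 0 at PHx 7 d, 6 at PHx 21 d, 5505 at CD 4 d and 40 at CD 170 d, or 42 with the numbers crossed, a pairing chosen after seeing the data because the pairs at CD 170 d correlated at -0.357. The block gave Fads2 an adjusted p of 0.0848 at 1M (0.94) and 0.921 at PHx 7 d (1.05), and Elovl2 0.298 at CD 170 d (1.40), or 0.176 crossed. The samples share only a number. No paired analysis was possible because the groups share fewer than 2 numbers at CD 50 d and 3M. Depth limited Elovl3 in females and at CD 4 d, where R&Z del livers had 46 and 29 reads.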

Other observations

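The 5 libraries left unassigned because their labels conflict, all of batch 1, had 1.31 to 2.33 CPM of Elovl3, 692 to 1194 CPM of Fads2, 557 to 816 CPM of Fads1, 266 to 338 CPM of Elovl2, 342 to 502.9 CPM of Elovl5, 281.5 to 436.5 CPM of Acsl1, 129 to 149.9 CPM of Lpcat3 and 56.4 to 91.8 CPM of Elovl1. Sex is not listed for most of them. They had 347 to 732 CPM of Cyp2b9, a gene higher in the female livers. The assigned females of batch 1 had 393 and 659 CPM of it, and its assigned males at most 116 CPM. The part of sex in their Elovl3 values was not tested.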
